A study of Drosophila melanogaster with 3 samples.

Results

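The 5 Hox genes of the Antennapedia complex of Drosophila melanogaster, lab, pb, Dfd, Scr and Antp, were examined for occupancy by E(z) in whole prepupae. They are 5 of 13945 protein-coding genes on the chromosome arms. They were taken as named genes, not by their values, but with earlier results of these data known. Chromatin from a transgenic line stably expressing E(z) with a C-terminal green fluorescent protein (GFP) fusion was precipitated and sequenced. The labels give 3 biological replicates of this 1 group, with males and females pooled and age unknown. No untagged or input group is among the lists used here, and the possible control experiment that the labels name was not used. The description of each sample gives an anti-GFP precipitation while the antibody field gives E(z), and the description was followed. Because whole animals were used, a peak does not tell in which cells or segments the fusion was bound. The lists hold no expression values, so the stage could not be checked against marker genes.

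The authors' relaxed lists, mapped to the dm6 genome, hold 30000 regions for each replicate and 30000 for the replicates pooled, and include background regions. Their optimal list holds the 5623 peaks kept by a threshold on reproducibility. A summit, the position of highest enrichment in a peak, was assigned to a gene when it lay inside the gene's Ensembl span or within 10 kb of it. By this rule 31 of the 5623 optimal summits fell to the 5 genes, and none fell to 2 of them. The authors' signal value has no stated scaling between lists, so it was used only as a rank within a list, where rank 1 is the highest. Sequencing depth is unknown from these lists.

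E(z) is the catalytic subunit of Polycomb repressive complex 2, which methylates lysine 27 of histone H3 and keeps developmental genes silent in cells where they should be off. Hox genes encode homeodomain transcription factors that give body segments their identity, and they are textbook targets of Polycomb repression in flies. In flies the Hox genes lie in a pair of clusters on the right arm of chromosome 3. The Antennapedia complex serves the head and anterior thorax, and the bithorax complex, with Ubx, abd-A and Abd-B, serves the posterior thorax and abdomen. Polycomb complexes are brought to DNA at Polycomb response elements, which carry binding words of several DNA-binding proteins, among them GAGA factor and Pho.

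The sequence around 8 of the 31 summits is shown because they hold or adjoin the highest-ranked summits of each gene, or hold the densest run of a response-element word. Bases are those of the RefSeq copy of genome release 6, plus strand, 5′ to 3′, on dm6 coordinates. Capitals mark every GAGAG or its complement CTCTC, the GAGA factor word, and every GCCAT or its complement ATGGC, the Pho word. Most windows reach 100 bp each side of the summit. The pb window keeps only bases upstream of the transcription start site (TSS), because the higher of its 2 promoter summits lies in the 5′ UTR. The window named Dfd downstream starts at its summit and runs 150 bp to the right.
lab, chr3R:6678596-6678796: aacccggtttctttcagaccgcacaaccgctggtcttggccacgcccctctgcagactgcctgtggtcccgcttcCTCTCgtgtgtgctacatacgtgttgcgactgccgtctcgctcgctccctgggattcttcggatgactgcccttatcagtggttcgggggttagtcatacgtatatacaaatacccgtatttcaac
pb, chr3R:6742064-6742256: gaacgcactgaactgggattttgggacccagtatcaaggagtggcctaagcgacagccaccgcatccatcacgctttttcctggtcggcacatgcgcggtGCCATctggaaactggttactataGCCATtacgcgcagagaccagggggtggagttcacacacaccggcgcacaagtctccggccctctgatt
Dfd, chr3R:6791528-6791728: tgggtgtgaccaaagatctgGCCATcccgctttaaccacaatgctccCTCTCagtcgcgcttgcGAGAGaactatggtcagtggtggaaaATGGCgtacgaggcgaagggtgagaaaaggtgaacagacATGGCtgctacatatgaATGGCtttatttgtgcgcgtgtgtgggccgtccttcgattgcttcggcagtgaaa
Dfd downstream, chr3R:6810738-6810888: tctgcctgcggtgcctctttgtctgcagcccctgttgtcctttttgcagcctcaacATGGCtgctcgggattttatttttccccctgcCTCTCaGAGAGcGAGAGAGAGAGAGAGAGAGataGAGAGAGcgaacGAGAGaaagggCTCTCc
Scr, chr3R:6848607-6848807: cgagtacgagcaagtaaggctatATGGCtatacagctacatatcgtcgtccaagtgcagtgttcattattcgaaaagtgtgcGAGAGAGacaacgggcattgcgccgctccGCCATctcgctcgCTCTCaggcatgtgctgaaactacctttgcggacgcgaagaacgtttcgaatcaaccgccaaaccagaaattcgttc
Antp downstream, chr3R:6893169-6893369: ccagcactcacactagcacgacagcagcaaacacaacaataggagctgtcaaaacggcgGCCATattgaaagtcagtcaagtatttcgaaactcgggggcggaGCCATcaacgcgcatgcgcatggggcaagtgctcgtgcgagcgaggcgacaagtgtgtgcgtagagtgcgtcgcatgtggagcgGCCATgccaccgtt
Antp intron, chr3R:6914439-6914639: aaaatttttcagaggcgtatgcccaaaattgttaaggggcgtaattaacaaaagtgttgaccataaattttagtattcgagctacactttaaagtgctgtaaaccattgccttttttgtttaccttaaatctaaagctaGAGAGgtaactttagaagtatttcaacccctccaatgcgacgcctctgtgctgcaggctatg
Antp upstream, chr3R:7000961-7001161: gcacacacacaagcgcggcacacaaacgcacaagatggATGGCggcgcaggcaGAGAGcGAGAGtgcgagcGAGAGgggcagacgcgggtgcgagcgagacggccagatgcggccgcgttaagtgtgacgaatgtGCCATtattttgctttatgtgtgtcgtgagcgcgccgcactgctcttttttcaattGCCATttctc
The Dfd promoter window holds 4 Pho words and 2 GAGA factor words around the highest-ranked summit of the complex. The window named Dfd downstream holds 14 overlapping or neighbouring GAGA factor words and 1 Pho word. The windows named lab and Antp intron, around summits of rank 553 and 614, each hold 1 GAGA factor word and 0 Pho words. A match is a description of the letters, and a window without one says nothing about the factor.

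Each of the 5 genes had an optimal summit no farther than 1 kb from one of its own TSSs, and the number of summits was 14 at Antp against 4 or 5 at each of the other 4. lab, pb and Scr had 4 summits each and Dfd had 5. Of all protein-coding genes, 51.8% had an optimal summit in the span or within 10 kb, 9.74% had 4 or more, and 0.172% (24 genes) had 14 or more. Summits this near a start were present at 16.1% of all protein-coding genes. Long genes have larger windows, and Antp spans 103.0 kb. Per 10 kb of window, Antp had 1.14 summits, a density reached or passed by 12.3% of all genes. With 10 kb each side, Dfd, with a span of 10.6 kb, had the highest density of the 5 genes, 1.63 summits per 10 kb. Of all genes, 6.05% reached that density. The densities were 1.08 at lab, reached by 12.8% of genes, 0.854 at Scr, reached by 22.2%, and 0.737 at pb, reached by 25.2%. All 5 Dfd summits lay in the flanks, and a pair of them lay 199 bp apart in overlapping peaks. With 5 kb each side, 3 summits remained at Dfd and 4 at lab, so the first place of Dfd depends on the flank.

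**Figure D1:**
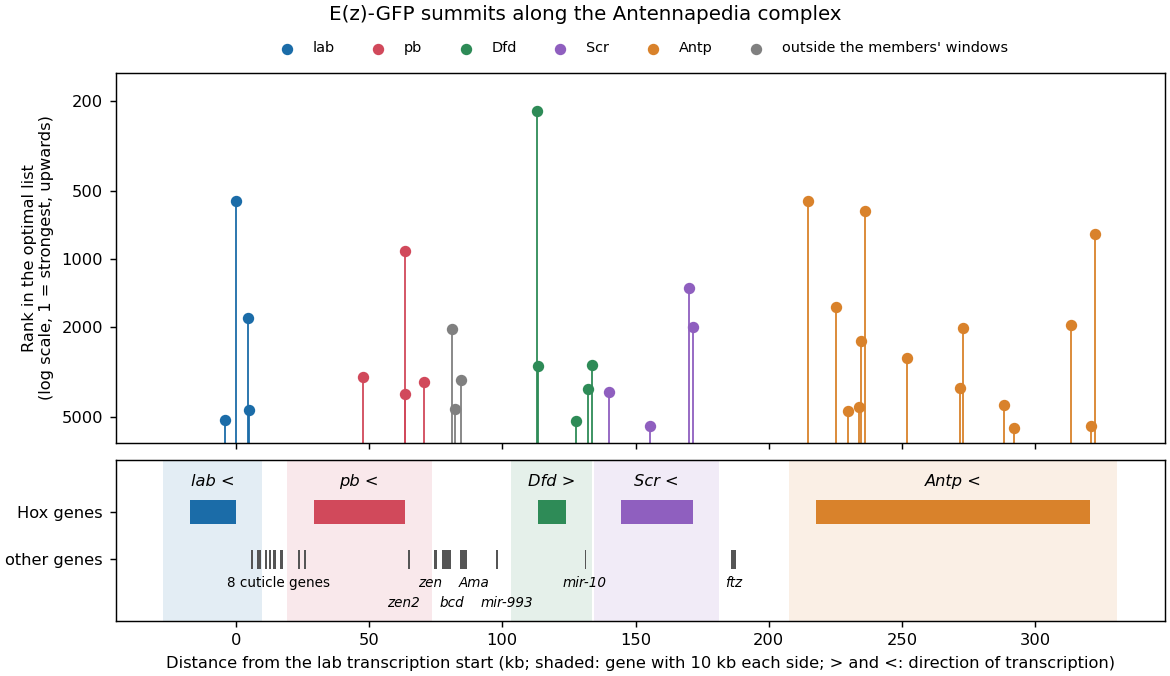
Optimal E(z)-GFP summits along the Antennapedia complex, by distance from the lab TSS in kb (x axis) and by rank in the optimal list (y axis, log scale, strongest at the top), above the genes, with each Hox gene's window shaded. The 6 highest, with ranks of 222 to 918, are at Dfd, Antp, lab and pb, and no summit lies in the 43.2 kb between those of Scr and Antp.

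lab, at 3R 6661427 to 6678590 on the minus strand (FBgn0002522), is the first gene of the complex and acts in the intercalary segment of the head and in the midgut. Its highest summit, at 6678696, lay 106 bp upstream of the TSS at 6678590. It ranked 553 in the optimal list and 1915, 589 and 160 in replicates 1, 2 and 3, so all 3 placed it among their 5623 strongest peaks. Another pair of summits, 208 bp apart at 6683348 and 6683556, lay 4758 and 4966 bp upstream in overlapping peaks, with optimal ranks of 1823 and 4636. The nearest TSS to both belongs to Edg84A, a cuticle protein gene, 1097 and 889 bp away. The single summit inside lab, in an intron at 6674719, ranked 5120 in the optimal list and 6608, 2815 and 10170 in replicates 1, 2 and 3. That intronic summit was among the 5623 strongest peaks of replicate 2 alone, and a second annotated TSS of lab, at 6663454, had its nearest optimal summit 11265 bp away.

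pb, at 3R 6707800 to 6742063 on the minus strand (FBgn0051481), is needed for the adult mouthparts. Its summits at 6741957 and 6742156 lay 199 bp apart on either side of its only TSS, 106 bp downstream and 93 bp upstream of it. The downstream one ranked 918 in the optimal list, 1109 in replicate 1 and 794 in replicate 2. No peak of replicate 3 contained that position, although replicate 3 had a peak of rank 570 with its summit 64 bp away. The upstream one ranked 3926 in the optimal list and 3116 in replicate 3. In replicate 2 both positions lay in the same peak of rank 794, and in replicate 1 no peak contained the upstream one. The other summits of pb were intronic at 6726343, 15720 bp inside the gene, with optimal rank 3300, and intergenic at 6749408, 7345 bp upstream, with optimal rank 3481. The nearest TSS to the intergenic one belongs to CG34297, 1401 bp away. None of the 4 pb summits was inside one of the 5623 highest peaks of all 3 replicates. At the promoter this depends on the peak edges, because replicates 1, 2 and 3 each had a peak, of rank 1109, 794 and 570, with its own summit no more than 64 bp from 6741957.

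Dfd, at 3R 6791836 to 6802428 on the plus strand (FBgn0000439), sets the identity of the mandibular and maxillary segments and is the only one of the 5 genes transcribed in that direction. Its promoter summit at 6791628, 208 bp upstream of the TSS, was the highest-ranked of the 31 in the optimal list, at rank 222. It ranked 541, 353 and 53 in replicates 1, 2 and 3, and the replicate summits lay 1, 5 and 5 bp from it. A neighbouring summit at 6791827, 9 bp upstream of the TSS, had an optimal rank of 2956. It lay in peaks of rank 9758 and 9348 in replicates 1 and 2, and in replicate 3 it lay inside the same peak of rank 53 as its neighbour. No optimal summit lay inside the Dfd gene. The other 3 lay 3777, 8310 and 9792 bp downstream of its end, with optimal ranks of 5212, 3737 and 2947. The last 2 of these are in lncRNA:CR42651, near mir-10, a microRNA gene of the complex whose nearest optimal summit was 1156 bp from its start.

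Scr, at 3R 6823120 to 6849981 on the minus strand (FBgn0003339), acts in the labial segment and the prothorax and is required for the salivary glands. Each of its 2 annotated TSSs had a summit. The one at 6848707 lay 202 bp upstream of the TSS at 6848505 and ranked 1339 in the optimal list and 1935, 2502 and 384 in replicates 1, 2 and 3. The other, at 6850103, lay 122 bp upstream of the TSS at 6849981 and ranked 1990 in the optimal list and 4659, 3203 and 619 in replicates 1, 2 and 3. Both were highest in replicate 3 and both were among the strongest peaks of all 3 replicates. A summit 4329 bp downstream of the gene, at 6818791, was the steadiest of the 4, with ranks of 4675, 5071 and 4347. The intronic summit at 6833868, in a stretch shared with lncRNA:CR45901, ranked 7196, 5984 and 2193 and was strong in replicate 3 alone.

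Antp, at 3R 6896253 to 6999228 on the minus strand (FBgn0260642), gives the thoracic segments their identity and is transcribed from 3 annotated TSSs, at 6999228, 6958370 and 6932840. Of its 14 summits, 11 lay inside the gene, 10 of them in introns and 1 in a UTR. The summits from 6903677 to 6951337 also lay inside another annotated gene, CG46458. The UTR at 6908273 was not assigned to either gene. The highest-ranked Antp summits were not within 1 kb of a TSS. The first, at 6893269, lay 2984 bp downstream of the gene in lncRNA:CR45559 and ranked 552 in the optimal list and 579, 880 and 262 in replicates 1, 2 and 3. The next, at 6914539, lay in an intron and ranked 614 in the optimal list and 950, 412 and 680 in the replicates. The third, at 7001061, lay 1833 bp upstream of the distal TSS in lncRNA:CR45899 and ranked 770 in the optimal list and 1063, 989 and 416 in the replicates. All 3 were among the 1063 highest peaks of every replicate.

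The only Antp summit within 1 kb of a TSS was at 6999524, 296 bp upstream of the distal start, and it was among the lowest of the optimal list at rank 5443. It ranked 8596, 8039 and 4687 in replicates 1, 2 and 3, so it was among the 5623 strongest peaks of replicate 3 alone. The nearest optimal summits to the TSSs at 6932840 and 6958370 were 2194 and 7033 bp away, with optimal ranks of 2740 and 2009. Within the gene, 4 summits lay between 6908273 and 6914539, with optimal ranks of 4693, 4512, 2289 and 614. The other 7 intronic summits, at 6903677, 6930646, 6950301, 6951337, 6966773, 6970754 and 6992067, ranked between 1627 and 5577 in the optimal list. Of the 14 Antp summits, 7 were found in all 3 replicates.

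**Figure D2:**
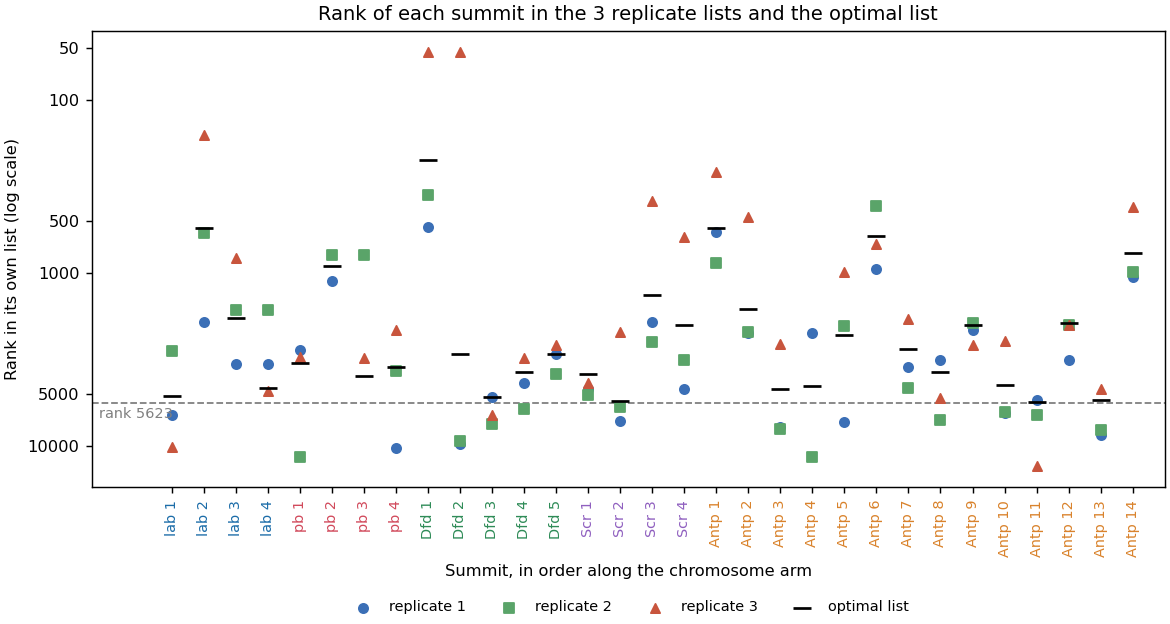
Rank of each of the 31 summits (x axis, in order along the chromosome) in replicates 1, 2 and 3 and in the optimal list (y axis, log scale, strongest at the top), where a replicate's rank is that of its highest peak containing the summit and a missing symbol means no such peak. Symbols of replicate 3 stand highest at 20 of the 28 summits that have all 3 ranks, and the dashed line at rank 5623 separates the peaks called strong.

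A summit was called found in a replicate when it lay inside one of that replicate's 5623 highest peaks, which are called strong here. Of the 31 summits, 15 (48.4%) were found in all 3 replicates, against 55.9% of all optimal summits. The optimal list was made from these replicates, so the shares describe it. With any peak of the relaxed lists in place of a strong one, 28 of the 31 (90.3%) were present in all 3 replicates, against 93.3% of all optimal summits. In replicates 1, 2 and 3, 22, 20 and 26 of the 31 were found, against 84.1%, 83.2% and 73.5% of all optimal summits. Across the summits ranked in both lists, Spearman's rho of the ranks was 0.633 between replicates 1 and 2 (n = 30), 0.421 between 1 and 3 (n = 28) and 0.471 between 2 and 3 (n = 29), given without a p. Over all optimal summits the same values were 0.759, 0.537 and 0.620, each higher than at the 5 genes (n = 5389, 5331 and 5382). In replicates 1, 2 and 3, the highest peak with a summit within 200 bp had that summit no more than 50 bp away at 22, 19 and 25 of the 31, against 78.8%, 80.2% and 76.2% of all optimal summits, which were made from these replicates. Their median rank was 3375, 3203 and 2193 in the 3 replicates (mean 2924 ± 639, SD, n = 3), against 2796.5, 2826 and 3036 for all optimal summits (mean 2886 ± 131, SD, n = 3). In the optimal list, 14 of the 31 (45.2%) were among the 2811 highest-ranked of the 5623 summits, and 3 (9.68%) among the 562 highest, against 9.99% of the list. The median at the Hox genes was thus lower in the list than that of all summits in replicates 1 and 2 and higher in replicate 3.

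The authors' −log10 q-value separated the summits little, because 25 of the 31, and 4665 of all 5623, had the same highest value of 3.97. The lowest among the 31 was 2.87, at the Antp summit at 6970754. Most peaks had the same width of 424 bp, 21 of the 31 at these genes and 75.4% of the optimal list.

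Strong peaks were also counted in each gene's window without the optimal list. Antp had 14, 13 and 16 in replicates 1, 2 and 3 (14.3 ± 1.53, SD, n = 3). lab had 3, 5 and 3 (3.67 ± 1.15), pb had 2, 2 and 4 (2.67 ± 1.15), Dfd had 4, 2 and 4 (3.33 ± 1.15) and Scr had 3, 3 and 4 (3.33 ± 0.577, SD, n = 3 each). The values of lab, pb, Dfd and Scr overlap, and those of Antp lie above all of them. These counts are not scaled by window length, which is 123.0 kb at Antp and 30.6 to 54.3 kb at the other genes. They were not set beside the same counts over all protein-coding genes. Together the 5 windows held 26, 25 and 31 strong peaks (27.3 ± 3.21, SD, n = 3).

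**Figure D3:**
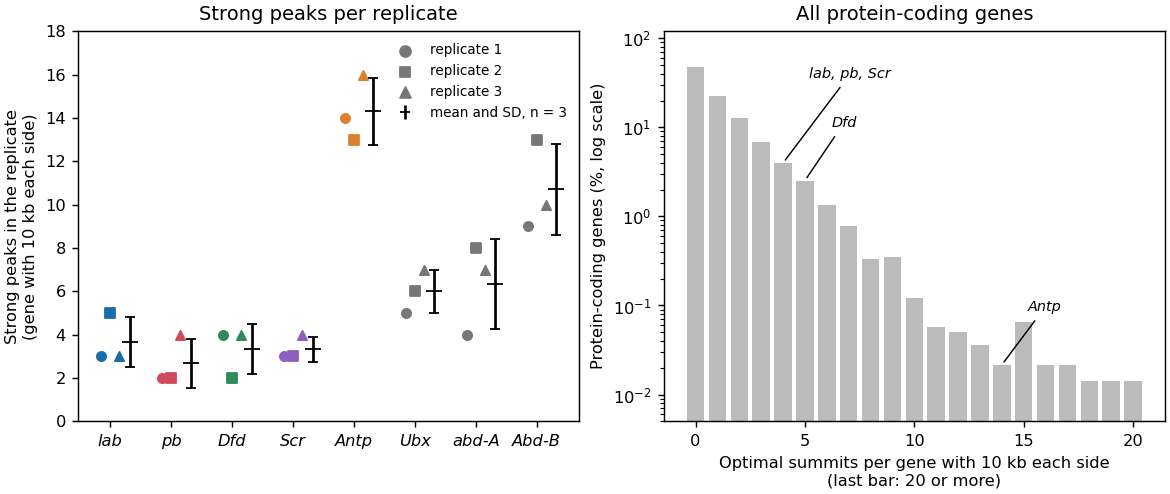
Left, number of strong peaks in each Hox gene's window (y axis) in replicates 1, 2 and 3, with mean and SD (n = 3), for the Antennapedia complex in colour and the bithorax complex in grey. Right, share of all protein-coding genes (y axis, percent, log scale) by number of optimal summits (x axis), where Antp, with 14, stands in a tail that 0.172% of genes reach. Counts in both panels are not scaled by window length, and 12.3% of genes reach the Antp density of 1.14 summits per 10 kb.

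By position, 9 of the 31 summits (29.0%) lay within 1 kb of a protein-coding TSS, against 40.8% of all optimal summits. Of these 9, 8 were at a TSS of the Hox gene itself and 1 was at Edg84A. Introns held 13 (41.9%), against 36.8% of all optimal summits, and 8 (25.8%) lay outside protein-coding genes, against 21.4%. The summits near a TSS had median ranks of 2655, 1649 and 501.5 in replicates 1, 2 and 3, and the farther ones 3433, 4219.5 and 2489, so the median near a TSS stood higher in each replicate. Summits of overlapping peaks can share a replicate rank, as with 53 in replicate 3 at Dfd and 794 in replicate 2 at pb. The replicate 2 median of 1649 is the rank at Edg84A, shared with the summit at 6683348, which counts as farther. Over all optimal summits the medians were 2721, 2519.5 and 2306.5 near a TSS and 2842, 2987 and 3612.5 farther away. A neighbouring optimal summit within 1 kb was present for 8 of the 31 (25.8%), against 25.9% of all optimal summits.

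Replicate 3 ranked the summits of these genes higher than the other replicates did. Of the 28 summits with a rank in all 3 lists, 20 (71.4%) ranked highest in replicate 3, 4 in replicate 1 and 4 in replicate 2, while 28.7% of all optimal summits ranked highest in replicate 3. At the Hox genes of the bithorax complex it was 16 of 23 (69.6%). The difference between the log10 rank in replicate 3 and the mean of replicates 1 and 2 had a median of −0.37 at the Antennapedia complex genes, −0.30 at the bithorax complex genes and 0.09 over all optimal summits, where a negative value means stronger in replicate 3. Base composition moved with it. The windows of 150 bp each side held 46.3% ± 7.66 G and C at the 31 summits and 39.4% ± 6.99 over all optimal summits (SD over summits, n = 31 and 5623). Among all optimal summits with at least the GC content of 46.3%, 73.2% ranked highest in replicate 3, and among those below it 20.8% did. Of the summits at the 5 genes, 14 of 16 with the higher GC content and 6 of 12 with the lower ranked highest in replicate 3. Across 5249 optimal summits, GC content and the replicate 3 difference had a Spearman correlation of −0.461, given without a p because sites share their libraries. The part of base composition in the replicate 3 ranks was not tested.

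**Figure D4:**
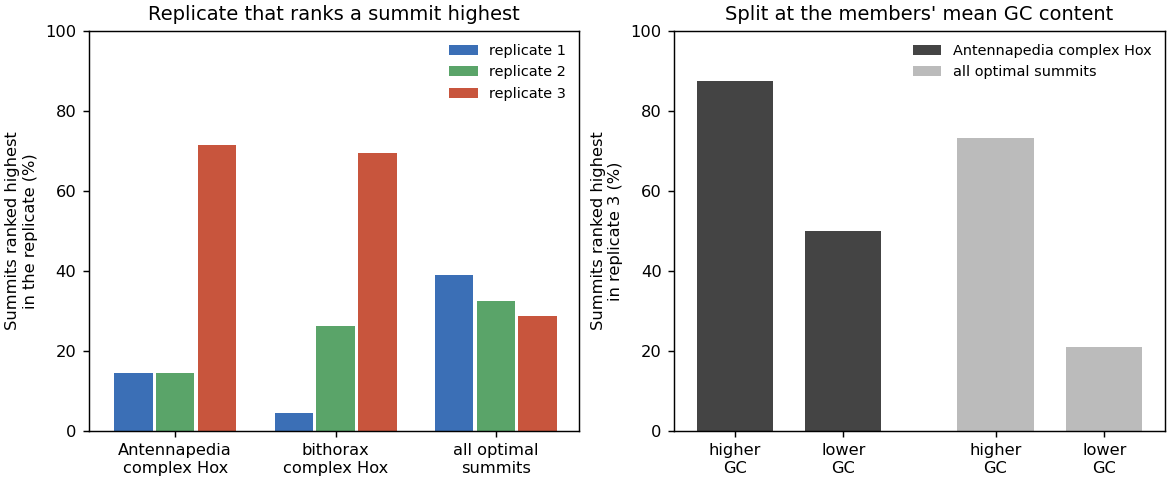
Left, share of summits (y axis, percent) that ranked highest in replicate 1, 2 or 3, for the Hox genes of the Antennapedia complex (n = 28), those of the bithorax complex (n = 23) and all optimal summits (n = 5249). Right, share ranked highest in replicate 3, split at the mean GC content of 46.3% of the Antennapedia complex windows. Above and below it the share is 14 of 16 and 6 of 12 at these genes, and 73.2% and 20.8% over all optimal summits.

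The GAGA factor word and the Pho word were each present at most summits of these genes. Words were searched on both strands in 150 bp each side of the summit, and a window counts once however many matches it holds. GAGAG was in 23 of 31 windows (74.2%, exact Clopper-Pearson 95% interval 55.4 to 88.1, counting error only), in 13 of 25 at the bithorax complex (52.0%) and in 42.2% of all optimal windows. Windows with 3 or more GAGAG numbered 12 of 31 (38.7%), against 12.1% of all. GCCAT was in 18 of 31 (58.1%, interval 39.1 to 75.5), in 20 of 25 at the bithorax complex (80.0%) and in 39.7% of all. Both words together were in 14 of 31 (45.2%), against 17.0% of all. GC content moves with these shares too. Among all optimal windows, GAGAG was in 67.3% of those with at least 46.3% GC and in 37.6% of those below. In the same split, 16 of 17 and 7 of 14 windows at the 5 genes held it. GCCAT was in 51.7% and 37.5% of all optimal windows in that split, and in 13 of 17 and 5 of 14 windows at the 5 genes. The part of base composition in the word shares was not tested.

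In percentage points, other words of response-element proteins stood closer to the background. TGAGTG, a word of Zeste, was in 7 of 31 windows (22.6%, interval 9.59 to 41.1), against 17.1% of all. GTGTGT, a word of Combgap, was in 10 of 31 (32.3%, interval 16.7 to 51.4), against 22.9% of all. GAAAA, a word of Dsp1, was in 27 of 31 (87.1%, interval 70.2 to 96.4), against 86.1% of all. Each interval held the share of all optimal windows, as did that of the Pho word. The intervals treat the 31 windows as independent, but these lie at neighbouring genes, and overlapping windows at lab, pb and Dfd share bases. The intervals may therefore be too narrow, and no word, the GAGA factor word included, was tested against the share of all optimal windows. At the bithorax complex their shares were 36.0%, 40.0% and 64.0%. In the GC split, GTGTGT was in 10 of 17 and 0 of 14 windows at the 5 genes, against 36.5% and 20.4% of all. TGAGTG was in 6 of 17 and 1 of 14, against 24.9% and 15.7%. GAAAA was in 14 of 17 and 13 of 14, against 73.1% and 88.4%. GAGAG matches overlap each other in a repeat, and matches of different words can share bases.

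By gene, the counts of windows with each word are small, with 4 or 5 windows at each gene but Antp, and differences between genes were not tested. All 5 Dfd windows and all 4 pb windows held GAGAG, as did 3 of 4 at Scr, 2 of 4 at lab and 9 of 14 at Antp. The windows of overlapping peaks at Dfd, pb and lab share bases, so a site there can count in 2 windows. The 5 Dfd windows held GAGAG at 25 distinct sites, of which 15 were at the summit at 6810738, whose repeat is printed above, and 6 at the promoter summit of rank 222, with 4 of those sites also in the neighbouring window. GCCAT was in 10 of 14 windows at Antp, 3 of 5 at Dfd, 2 of 4 at lab, 2 of 4 at Scr and 1 of 4 at pb. The promoter summit of Dfd held the most GCCAT matches, 6 in its window. Neither word was in 4 of the 31 windows, at 6683556 upstream of lab, at 6833868 in Scr, and at 6908273 and 6951337 in Antp.

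**Figure D5:**
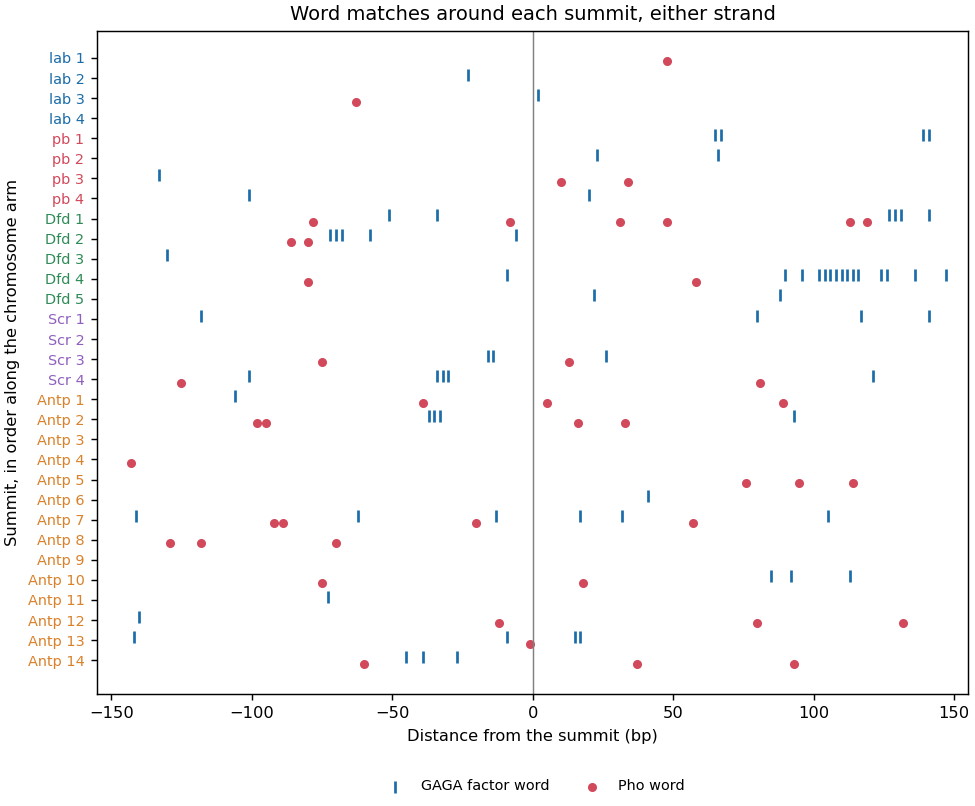
Position of each GAGAG match (bars, GAGA factor word) and GCCAT match (dots, Pho word) relative to the summit in bp (x axis), for the 31 summits in order along the chromosome (y axis). The 4 rows without a symbol, lab 4, Scr 2, Antp 3 and Antp 9, hold neither word, and Dfd 4 holds a run of GAGAG to the right of its summit.

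The Hox genes of the 2 complexes were compared by the median log10 rank of their summits within each replicate. It was 3.53, 3.51 and 3.34 at the 31 summits of the Antennapedia complex in replicates 1, 2 and 3, and 3.62, 3.38 and 3.22 at the 25 summits of the bithorax complex. The difference, Antennapedia minus bithorax, was −0.09, 0.13 and 0.12 (mean 0.05 ± 0.12, SD, n = 3), so the direction was not the same in all replicates. An exact two-sided sign-flip permutation test over the 3 replicates gave p = 0.5, and the smallest p this design allows is 0.25. Counting only summits within 5 kb of a gene turned the mean difference to −0.04 (p = 0.5, the same exact test). Taking only the best summit of each complex gave 0.19, a lower position of the Antennapedia complex in all 3 replicates, with the exact test at its smallest p of 0.25. By gene, Antp had 14 summits, while Abd-B had 12, Ubx 7 and abd-A 6, in windows of unequal length. Per 10 kb of window, Antp had 1.14, while Abd-B had 1.85, abd-A 1.4 and Ubx 0.716, so Antp stood below Abd-B and abd-A on that scale. The best optimal rank was 222 in the Antennapedia complex, at Dfd, and 146 in the bithorax complex, at Abd-B.

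The complex held stretches without optimal summits, whose lengths were not set beside gaps elsewhere in the genome. The stretch from 10 kb beyond lab to 10 kb beyond Antp, 357.8 kb in all, held 34 optimal summits, of which 31 belong to the 5 genes. The other 3 lay near bcd, which encodes the anterior morphogen of the egg, and Ama, which encodes a cell adhesion protein. They were at 6759667, 201 bp upstream of bcd, with optimal rank 2026, at 6760946 with rank 4575 and at 6763062, inside Ama and 342 bp upstream of an inner TSS of it, with rank 3412. The longest gap, 43.2 kb between the Scr summit at 6850103 and the Antp summit at 6893269, holds ftz, a pair-rule gene. No replicate had a strong peak in it, and its highest pooled peak ranked 7656. A gap of 42.8 kb between the summits of lab and pb holds the 8 cuticle genes and part of pb itself, and its highest pooled peak ranked 11602. A gap of 28.6 kb between Ama and Dfd holds mir-993, with 0 strong peaks in each replicate.

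Of 7 other genes of the complex, zen, zen2, bcd, Ama, ftz, mir-10 and mir-993, bcd and Ama had a summit 1 kb or less from a start (16.1% of protein-coding genes had one). Of the 8 cuticle genes, Edg84A had one. Among 5 genes that encode cofactors or known targets of Hox proteins, hth, tsh and fkh had one, while exd and rpr did not. hth, a homeobox gene whose protein binds DNA with Hox proteins, had its nearest summit 168 bp from a TSS, and fkh, a target of Scr in the salivary gland, had its nearest 258 bp away. All 3 Hox genes of the bithorax complex had a TSS summit, at 10 bp for Ubx, 146 bp for abd-A and 145 bp for Abd-B. The Ubx one had an optimal rank of 5292. It ranked 12329, 12996 and 2199 in replicates 1, 2 and 3, so it was strong in replicate 3 alone.

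Outside both complexes, the protein-coding gene most like each Hox gene was found from the log10 ranks of the best peak in the window in the 3 replicates, among 10672 genes. The best peak of pb ranked 1109, 794 and 570, and that of InR, the insulin receptor gene, ranked 1118, 786 and 606, a distance of 0.027. For Antp, with best ranks of 579, 412 and 262, the nearest was emc, with 695, 376 and 266, at a distance of 0.089. Scr was closest to 5 genes that share a best peak, pk among them, at 0.062. lab was closest to 10 genes that share a best peak, at 0.124, and Dfd to CG7900 and puc, at 0.157. This likeness covers 3 ranks of 1 peak and nothing more.

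The limits of the list and of the window were also described. The first pooled peaks below the optimal list had pooled ranks of 5832 at lab, 11602 at pb, 10104 at Dfd, 7705 at Scr and 6179 at Antp. The farthest summit inside a window was 9792 bp from Dfd. The nearest one outside was 10900 bp from Scr, at 6812220, and it is counted at Dfd. The next was 11955 bp from Antp, at 7011183, with optimal rank 5396.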

How the data were processed

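Per the labels, E(z)-GFP was immunoprecipitated from whole prepupae and sequenced, with 3 biological replicates in 1 group. The authors deposited relaxed lists per replicate, a pooled list and an optimal list on dm6. The signal values the authors deposited have no stated scaling, and only their order inside each list was used. The −log10 q-values the authors deposited were described, and the deposited summit offset, a score in bp from the peak start, placed each summit. Which aligner and caller made the peaks is not given in the sources used here. Lists on dm3 were not used here.

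Gene spans and TSSs came from Ensembl release 115, assembly BDGP6.54, and all 5 spans were the same in RefSeq. Coordinates are 1-based dm6. A replicate rank was that of the highest-signal peak containing the optimal summit, so summits of overlapping peaks can share one. Strong peaks were the 5623 highest of a replicate. Counts were set beside all 13945 protein-coding genes or all 5623 optimal summits. The complexes were compared by an exact sign-flip permutation test. Python 3.11.15, pandas 2.3.3, numpy 2.4.6 and scipy 1.17.1 were used, and the counting and ranking steps were tested on simulated data.

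Named genes were the 5 members, the lists of other genes of the complex, cuticle genes, bithorax complex genes and Hox cofactors and targets, the gene of the nearest TSS of a summit, and the most similar gene of each member. Members and lists were chosen with earlier results of these data known. Alternatives were other flanks, distances, window lengths, rules for finding a summit, RefSeq spans and each replicate left out. Merging overlapping peaks was added after seeing the data. Depth per sample is unknown, so intervals cover counting error of summits only.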

Additional observations from a re-analysis of the deposited data

How the results depend on the processing

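The 31 summits became 16 in gene spans alone, 14 among the 2811 highest-ranked optimal summits and 15 among those found in all 3 replicates, all of which keep fewer summits by construction. Leaving out each replicate kept only summits found in both others, which gave 16 to 18. With 5 kb or 20 kb each side there were 28 or 34, and with overlapping peaks merged 28. The 5 genes with a TSS summit became 3 to 4 when a replicate was left out, and the 3 came without replicate 2, when Antp and pb had none found in both others. The 15 summits found in all 3 replicates became 26 with the 11246 highest peaks of each replicate, 28 with any relaxed peak and 14 with overlapping peaks merged. The looser rules can only raise the count. With any relaxed peak the share was 90.3%, against 93.3% of all optimal summits, and no such share is given beside the 26. The mean difference between the complexes, 0.05, reversed to −0.04 with 5 kb each side (exact sign-flip p = 0.5), and ran from 0.01 to 0.12 without a replicate; the cause was not tested. The difference was 0.19 with the best summit of each complex (exact sign-flip p = 0.25, the smallest possible). GCCAT reached 80.6% of the windows with 250 bp each side, which are longer by construction, against 59.6% of all optimal windows of that length. GAGAG was in 61.3% with 100 bp each side, against 28.2% of all optimal windows of that length. With 150 bp each side it was in 87.5% of the 16 windows kept without replicate 3. No share under that filter is given for all optimal windows. The median rank of the summits ran from 2698 without replicate 1 to 3289 without replicate 3. Depth is unknown, so no counting error could be given to a rank. The 16 repeated peak intervals of the optimal list include none at these genes.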
